A study of Mus musculus with 12 samples.

Results

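Mesangial cells and pericytes are the contractile cells that hold capillaries in shape, mesangial cells inside the glomerulus and pericytes along the vessels elsewhere in the kidney. Both lineages depend on platelet-derived growth factor B, which endothelium secretes and which they sense through PDGF receptor β, and in antibody-mediated glomerular disease mesangial cells can be injured, proliferate and lay down matrix. Markers of these cells were described here across 2 mouse strains with and without anti-GBM glomerulonephritis (anti-GBM GN), a model in which antibody against the glomerular basement membrane binds along the capillary wall. The marker list held 10 genes, Pdgfrb, Itga8, Gata3, Serpine2, Rgs5, Cspg4, Ptn, Mgp, Fhl2 and Sfrp2. A gene was taken when the array annotation gave a probe set its symbol and no other, and its probe set with the highest mean over the 12 arrays stood for it. By this rule 9 of the 10 markers were measured, out of 18201 genes in all, and Serpine2 was not analysed here. All 9 passed the filter on low values, which left 11921 genes to test.

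RNA came from glomeruli isolated from female mice, 8 to 10 weeks old, with 3 mice in each of 4 groups and 1 Affymetrix array per mouse. The groups were 129S2SvPAs mice with anti-GBM GN, 129S2SvPAs controls, C57BL6J mice with anti-GBM GN and C57BL6J controls. Nephrotoxic serum was given on days 0, 1 and 2 and glomeruli were taken on day 4 by passing kidney through nylon sieves of 100 and 45 µm. The labels describe the serum in the same words for all 12 mice, so what the controls received is not given, and the control labels spell the strain 129S2SvPAS. No allele or transgene is named for any group, so strain is the only genetic difference given. Values are log2 probe set signals as deposited.

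Across the series, array medians lay between 2.99 and 3.06 and values between 1.12 and 15.02, and the number of arrays limits the precision. Correlations between arrays of a group were 0.983 to 0.994, except that replicate 1 of 129S2SvPAs anti-GBM GN reached 0.974 and 0.973 with the other arrays of its group. Markers of podocytes and of glomerular endothelium, defining cells of the labelled tissue, were present, and so were those of proximal tubule. The mean log2 signal of 10 proximal tubule markers averaged 11.20 ± 0.11 in 129S2SvPAs anti-GBM GN and 12.37 ± 0.12 in 129S2SvPAs controls, against 11.42 ± 0.22 in C57BL6J anti-GBM GN and 11.85 ± 0.17 in C57BL6J controls (SD, n = 3). Whole isolates were measured. Fewer cells of a type, less RNA per cell and a differing share of tubule in the isolate therefore cannot be told apart.

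Differences were tested with limma over all 12 arrays, with p-values Benjamini-Hochberg adjusted over the 11921 genes and a gene called at an adjusted p under 0.05. In 129S2SvPAs mice 3 of 9 markers rose with anti-GBM GN, Mgp, Rgs5 and Pdgfrb, and 1 fell, Ptn. Of all genes 10.6% rose and 9.76% fell in that comparison. In C57BL6J mice 0 of 9 markers passed in limma, where 4.78% of all genes rose and 2.31% fell, and 1 marker, Mgp, had an unadjusted p under 0.05, as did 21.2% of all genes. Between challenged mice of the strains, 1 marker, Ptn, was lower in 129S2SvPAs and 0 were higher, beside 4.89% of all genes lower and 3.49% higher. Between controls, 2 markers, Mgp and Rgs5, were lower in 129S2SvPAs and 0 were higher, beside 5.11% of all genes lower and 3.32% higher. For Rgs5 the direction of that difference depended on the probe set, as described with its values. The difference of the responses (129S2SvPAs minus C57BL6J) was called for 0 of 9 markers and for 0.562% of all genes. In that comparison 3 markers, Mgp, Rgs5 and Ptn, had an unadjusted p under 0.05 in limma, as did 10.9% of all genes.

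The median log2 difference over the 9 markers was 0.87 for the 129S2SvPAs response and 0.45 for the C57BL6J response, against 0.00 and -0.03 over all genes tested. It was -0.22 between challenged mice and -0.24 between controls, where the medians of all genes were 0.03 and 0.00. The arrays of the groups did not overlap for 6 of 9 markers in the 129S2SvPAs response, for 32.5% of all genes. Those were Pdgfrb, Itga8, Rgs5, Mgp and Sfrp2, higher with anti-GBM GN, and Ptn, lower. In the C57BL6J response 2 of 9 did not overlap, Pdgfrb and Mgp, both higher, for 29.1% of all genes. Between challenged mice Ptn alone, 1 of 9, did not overlap, for 27.9% of all genes. Between controls Rgs5, Mgp and Fhl2 did not overlap, 3 of 9 and lower in 129S2SvPAs, for 31.6% of all genes.

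**Figure D1:**
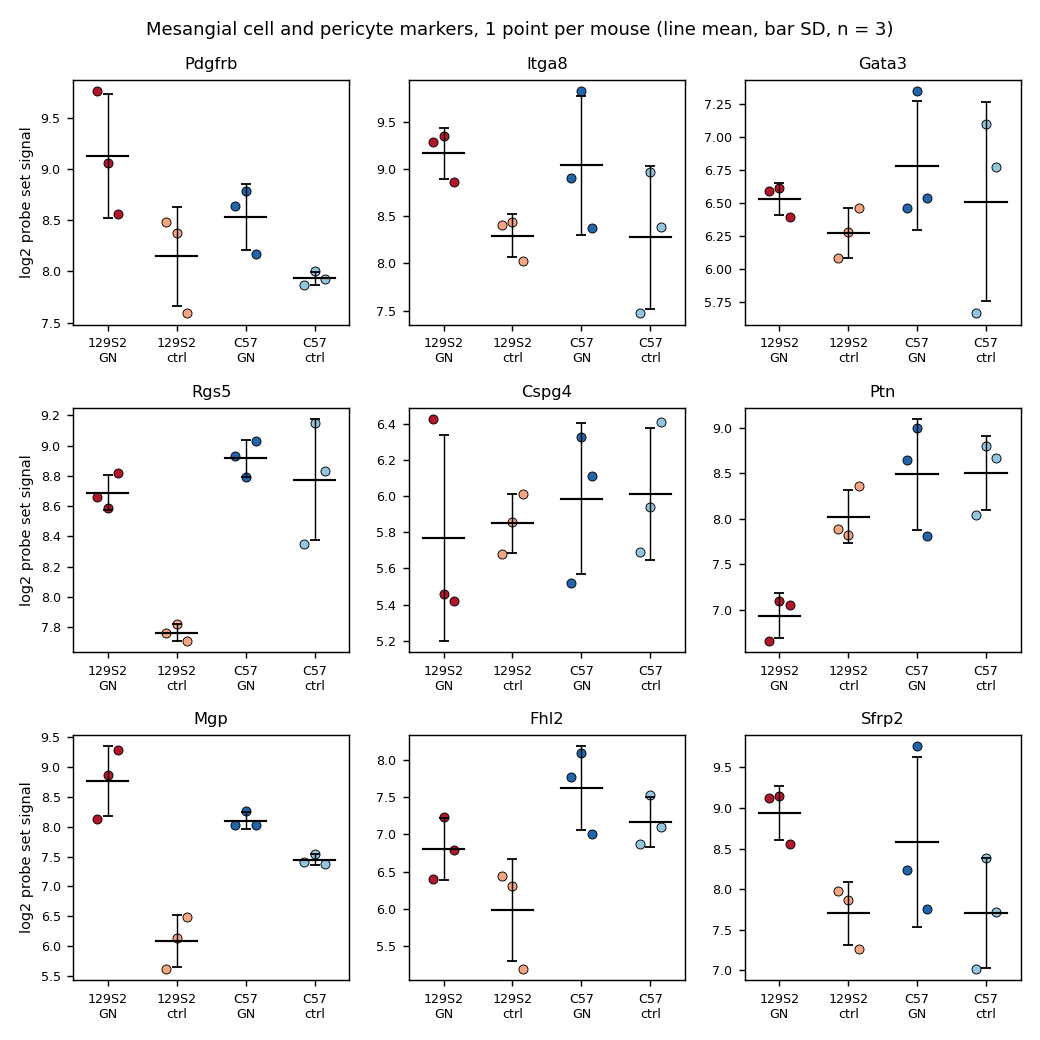
The log2 probe set signal of the 9 measured markers (vertical axes) is plotted per mouse in the 4 groups, with the group mean as a line and the SD as a bar (n = 3). Mgp and Rgs5 are lowest in the 129S2SvPAs control mice, and Ptn is lowest in the 129S2SvPAs anti-GBM GN mice.

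Promoter sequence is shown for Rgs5 and Ptn, whose RNA passed a test in both a treatment and a strain comparison, and for Fhl2, whose windows held the rarest of the motifs searched. RefSeq windows on GRCm38.p6 matched 8 of the 10 listed markers, with 9 windows because Fhl2 had 2 starts. Pdgfrb had no window, nor had Mgp, which also passed a test in both a treatment and a strain comparison. Capitals mark every match of the 5 motifs searched on either strand. These were AGATAA for factors of the Gata3 family, TATAAA for the core promoter, GGGCGG for Sp1, TGANTCA for Fos and Jun, and the CArG box for serum response factor. The sequences run 5′ to 3′ on the gene's strand and end at the base before the transcription start. They are chr1:169655251-169655500 (+) for Rgs5, chr6:36810180-36810429 (-) for Ptn, and chr1:43196762-43196861 (-) and chr1:43163962-43164061 (-) for the last 100 bases before the starts of Fhl2.
Rgs5: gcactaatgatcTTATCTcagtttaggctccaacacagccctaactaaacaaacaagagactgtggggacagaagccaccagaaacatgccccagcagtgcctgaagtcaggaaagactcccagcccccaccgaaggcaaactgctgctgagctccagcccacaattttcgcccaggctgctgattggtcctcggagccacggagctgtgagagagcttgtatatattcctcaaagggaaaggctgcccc
Ptn: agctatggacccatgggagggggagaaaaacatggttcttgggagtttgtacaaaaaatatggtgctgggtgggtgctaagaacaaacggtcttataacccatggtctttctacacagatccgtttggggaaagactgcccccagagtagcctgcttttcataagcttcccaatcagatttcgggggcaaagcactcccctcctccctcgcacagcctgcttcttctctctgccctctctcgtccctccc
Fhl2, first start: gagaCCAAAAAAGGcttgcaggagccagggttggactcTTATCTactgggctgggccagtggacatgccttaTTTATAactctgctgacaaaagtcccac
Fhl2, other start: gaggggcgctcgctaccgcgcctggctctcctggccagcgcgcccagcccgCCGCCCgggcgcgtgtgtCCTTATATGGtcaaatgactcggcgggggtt

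The Rgs5 window of 250 bases held 1 match, to AGATAA on the opposite strand, and the Ptn window held none of the 5 motifs. Each of the Fhl2 windows held a CArG box, a palindromic motif that reads on both strands and is present in 1.47% of 32851 mouse promoter windows of the same length. One Fhl2 window also held AGATAA and TATAAA, and the other held GGGCGG, all of them on the opposite strand. Of all windows, 9.99% hold AGATAA, 12.4% TATAAA, 32.7% GGGCGG and 6.75% TGANTCA. The windows of Itga8 and Sfrp2 held none of the 5 motifs. Those of Gata3 and Cspg4 held GGGCGG 2 times each, and that of Serpine2 held it 6 times. A match is a description of the sequence and not a site of binding.

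Pdgfrb encodes PDGF receptor β, the receptor through which pericytes and mesangial cells answer PDGF-B. Its signal was 9.76, 9.06 and 8.56 in 129S2SvPAs anti-GBM GN, against 8.48, 8.37 and 7.59 in 129S2SvPAs controls. In C57BL6J mice it was 8.64, 8.78 and 8.17 with anti-GBM GN and 7.87, 8.00 and 7.93 in controls. By this probe set, the one with the highest mean, every challenged mouse lay above every control of its own strain in both strains. The difference was 0.98 on the log2 scale in 129S2SvPAs (SE 0.31, 1.97-fold, limma adjusted p = 0.0452). In C57BL6J it was 0.60 (SE 0.31, adjusted p = 0.302) and was called in 1 of 21 alternative settings, array weights (0.69, adjusted p = 0.0488). The call in 129S2SvPAs sat at the threshold and was made in 8 of 21 alternative settings, with adjusted p between 0.0148 and 0.157. It was lost on leaving out any 1 of 9 arrays, among them arrays of C57BL6J, and kept without replicate 3 of either anti-GBM GN group or replicate 1 of the 129S2SvPAs controls. The other probe set of Pdgfrb gave 1.05 in 129S2SvPAs (SE 0.39, adjusted p = 0.0919). In C57BL6J its groups overlapped, with 5.40, 6.61 and 5.54 in anti-GBM GN and 4.97, 5.47 and 5.43 in controls. Between strains the first probe set differed by 0.60 in challenged mice, with a 95% interval of -0.08 to 1.27, and by 0.21 in controls, with an interval of -0.46 to 0.89.

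Of the 4 PDGF ligand genes 2 rose with anti-GBM GN in both strains, Pdgfb and Pdgfa, 1 fell in both, Pdgfc, and Pdgfd was called in neither response. Pdgfb, the main ligand of the receptor, read 8.90, 8.87 and 8.25 in 129S2SvPAs anti-GBM GN, against 6.09, 6.56 and 5.52 in 129S2SvPAs controls. In C57BL6J it read 8.96, 9.29 and 8.97 with anti-GBM GN and 7.56, 8.22 and 8.02 in controls. Pdgfb therefore rose in both strains without overlap, by 2.62 in 129S2SvPAs (SE 0.27, adjusted p = 0.000128) and 1.14 in C57BL6J (SE 0.27, adjusted p = 0.0317), and its control level was lower in 129S2SvPAs by -1.88 (SE 0.27, adjusted p = 0.00182). The difference between those responses was 1.48 and was not called (SE 0.39, adjusted p = 0.164). Pdgfa, whose product binds mainly PDGF receptor α, rose by 1.40 in 129S2SvPAs (SE 0.14, adjusted p = 9.18e-05) and by 0.94 in C57BL6J (SE 0.14, adjusted p = 0.00255). Pdgfd, which encodes another ligand of PDGF receptor β, was lower in 129S2SvPAs than in C57BL6J, by -1.61 in challenged mice (SE 0.43, adjusted p = 0.0419) and by -2.50 in controls (SE 0.43, adjusted p = 0.00443). Pdgfc, named after its values were seen, fell by 1.52 in 129S2SvPAs (SE 0.20, adjusted p = 0.000437) and by 0.75 in C57BL6J (SE 0.20, adjusted p = 0.0451).

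**Figure D2:**
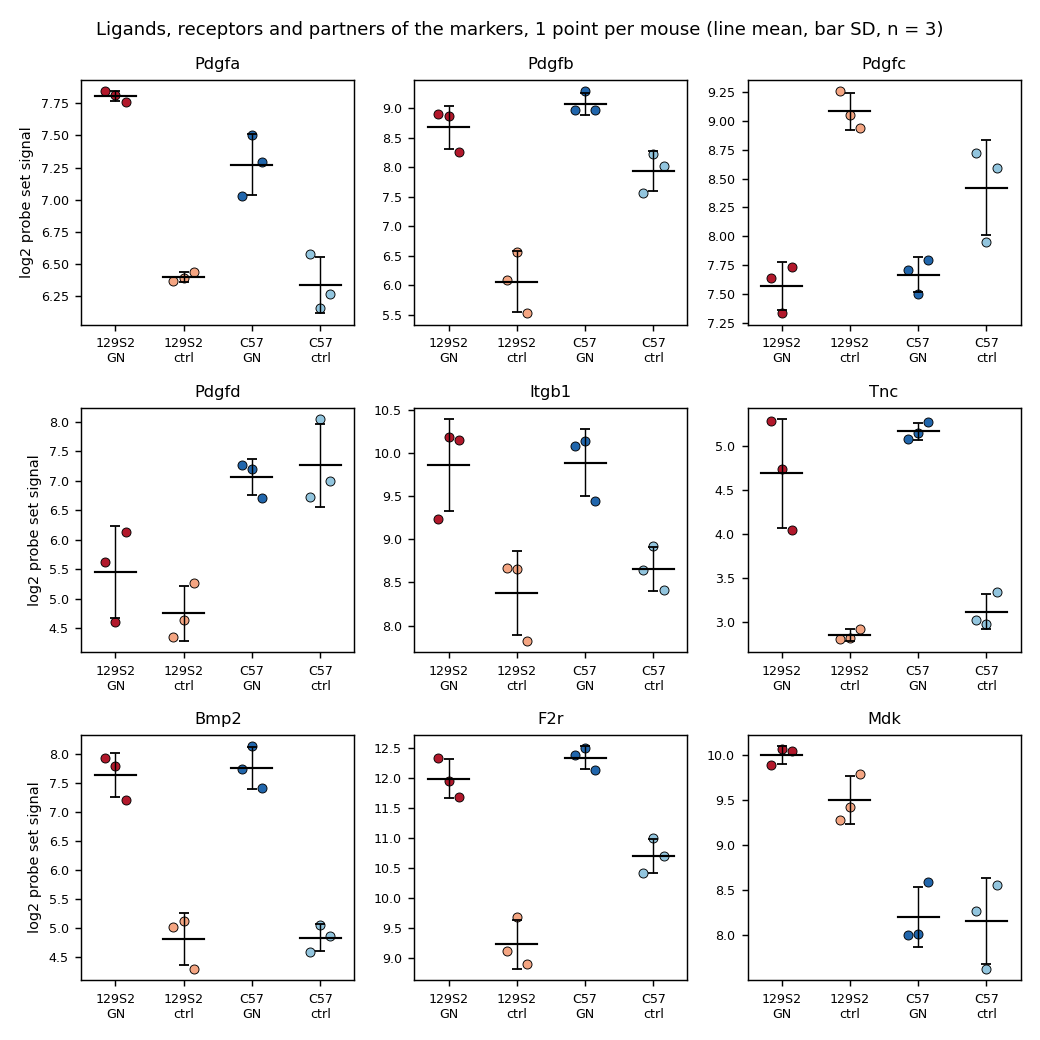
The log2 probe set signal of 9 ligands, receptors and partners of the markers (vertical axes) is plotted per mouse in the 4 groups, with the mean as a line and the SD as a bar (n = 3). Pdgfa, Pdgfb, Itgb1, Tnc, Bmp2 and F2r lie higher with anti-GBM GN in both strains, Pdgfc lies lower, and Pdgfd and Mdk separate the strains in opposite directions.

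Rgs5 encodes a regulator of G protein signalling that shortens the action of contractile receptors and is a classical pericyte marker. Its signal was 8.66, 8.59 and 8.82 in 129S2SvPAs anti-GBM GN, against 7.76, 7.82 and 7.71 in 129S2SvPAs controls. In C57BL6J it was 8.93, 8.79 and 9.03 with anti-GBM GN and 8.35, 9.15 and 8.83 in controls. The 129S2SvPAs controls stood below all 9 other arrays, and the C57BL6J groups overlapped. Rgs5 rose by 0.93 in 129S2SvPAs (SE 0.17, 1.90-fold, adjusted p = 0.00385), and that call was kept in 21 of 21 alternative settings. In C57BL6J the difference was 0.14, with a 95% interval of -0.25 to 0.53. The responses differed by 0.79 (SE 0.25), which was not called (adjusted p = 0.25).

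The direction of the strain difference of Rgs5 depended on the probe set. The probe set with the highest mean read 1.01 lower in 129S2SvPAs controls than in C57BL6J controls (-1.01, SE 0.17, adjusted p = 0.00479). A second one, 1420941_at, examined after values were seen, read 7.08, 7.28 and 7.34 in 129S2SvPAs anti-GBM GN and 6.62, 6.62 and 6.01 in 129S2SvPAs controls. In C57BL6J it read 4.60, 4.80 and 4.94 with anti-GBM GN and 4.54, 5.17 and 4.59 in controls. Every 129S2SvPAs array was thus above every C57BL6J array, the reverse of the order in the first probe set's controls. By that probe set Rgs5 was higher in 129S2SvPAs by 2.45 in challenged mice (SE 0.21, adjusted p = 5.83e-05) and by 1.65 in controls (SE 0.21, adjusted p = 0.000815). The remaining 2 probe sets lay near the floor of the values, with group means of 3.24 to 4.00 and 3.51 to 3.63. For the treatment difference 1420941_at gave 0.82 in 129S2SvPAs (SE 0.21, adjusted p = 0.0211) and 0.01 in C57BL6J (SE 0.21, adjusted p = 0.989). The cause of the opposed strain differences was not tested.

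**Figure D3:**
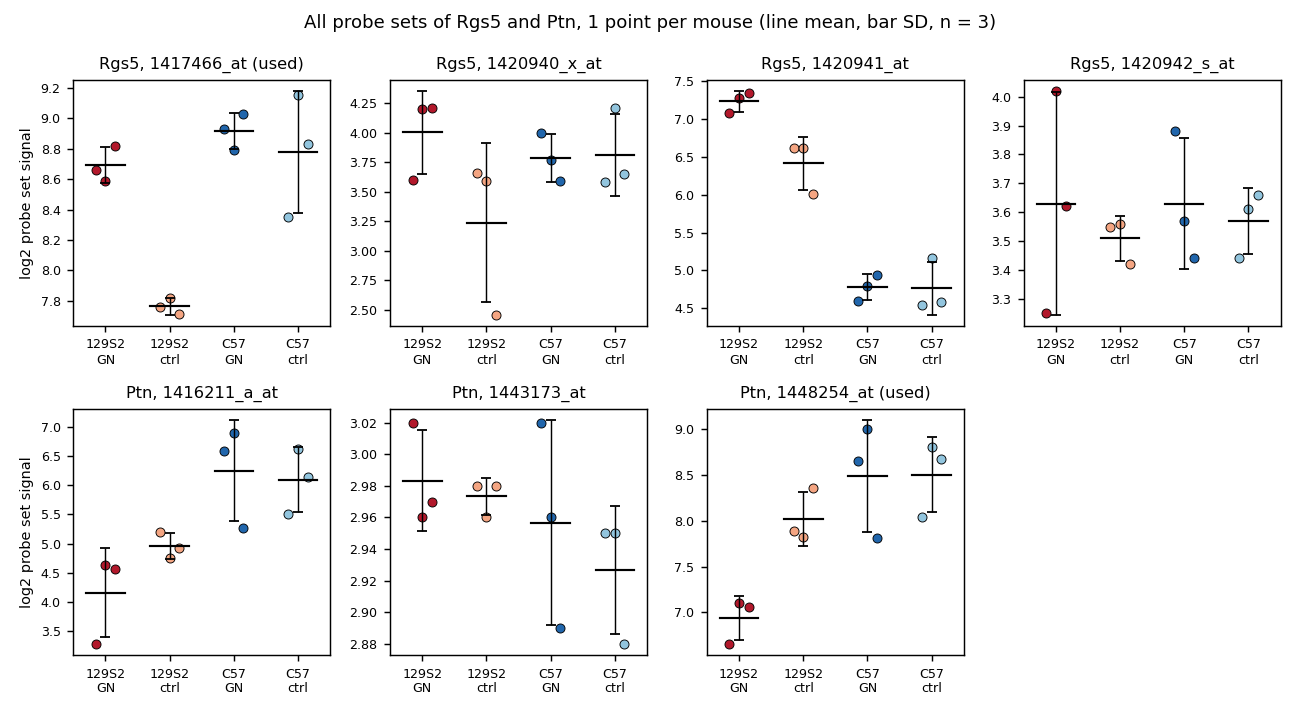
The log2 signal of each probe set of Rgs5 and Ptn (vertical axes) is plotted per mouse in the 4 groups, with the mean as a line and the SD as a bar (n = 3). For Rgs5 the strains are ordered one way in 1417466_at controls and the other way in 1420941_at, and for Ptn the challenged 129S2SvPAs mice lie below the challenged C57BL6J mice in both probe sets above the floor.

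Cspg4 encodes the NG2 proteoglycan on the pericyte surface. Its signal was 6.43, 5.46 and 5.42 in 129S2SvPAs anti-GBM GN, against 5.68, 5.86 and 6.01 in 129S2SvPAs controls. C57BL6J mice had 5.52, 6.33 and 6.11 with anti-GBM GN and 5.69, 5.94 and 6.41 in controls. All 4 groups overlapped and none of the 5 comparisons was called. The 95% intervals of the treatment difference were -0.74 to 0.58 in 129S2SvPAs and -0.69 to 0.63 in C57BL6J, which allow a change of either sign.

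Itga8 encodes integrin α8, a mesangial surface marker that pairs with integrin β1 and binds nephronectin, fibronectin and tenascin-C. Its signal was 9.29, 9.35 and 8.86 in 129S2SvPAs anti-GBM GN, against 8.41, 8.44 and 8.03 in 129S2SvPAs controls. In C57BL6J it was 8.91, 9.83 and 8.38 with anti-GBM GN and 7.47, 8.97 and 8.39 in controls. The 129S2SvPAs groups did not overlap and the C57BL6J groups did. The difference was 0.87 in 129S2SvPAs (SE 0.40, adjusted p = 0.155) and 0.76 in C57BL6J (SE 0.40, adjusted p = 0.314), and neither was called. In a fit of the 129S2SvPAs groups alone its 129S2SvPAs difference was called (adjusted p = 0.0368). Between strains Itga8 differed by 0.13 in challenged mice and 0.02 in controls, with 95% intervals of -0.76 to 1.01 and -0.87 to 0.90. A second probe set of lower signal gave 0.95 for the 129S2SvPAs response (SE 0.54, adjusted p = 0.271). In it the groups of 129S2SvPAs overlapped as well.

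Of the partners of Itga8, Tnc, which encodes the matrix protein tenascin-C, rose by 1.85 in 129S2SvPAs (SE 0.25, adjusted p = 0.000543) and by 2.06 in C57BL6J (SE 0.25, adjusted p = 0.000661). The controls lay near the floor, between 2.80 and 3.34, so those differences may be understated. Itgb1 and Fn1 were named after their values were seen. Itgb1, the integrin β1 subunit that Itga8 needs, rose by 1.48 in 129S2SvPAs (SE 0.31, adjusted p = 0.00728) and by 1.23 in C57BL6J (SE 0.31, adjusted p = 0.0404). Fn1, which encodes fibronectin, rose by 1.82 in 129S2SvPAs (SE 0.39, adjusted p = 0.0076). Its 129S2SvPAs controls averaged 3.19 ± 0.62 (SD, n = 3), near the floor, so that difference may be understated too. In C57BL6J Fn1 averaged 4.88 ± 0.55 with anti-GBM GN and 3.66 ± 0.42 in controls (SD, n = 3) and was not called.

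Gata3 encodes a zinc finger transcription factor expressed in mesangial cells of the kidney. Its signal was 6.59, 6.61 and 6.39 in 129S2SvPAs anti-GBM GN, against 6.08, 6.28 and 6.46 in 129S2SvPAs controls. C57BL6J mice had 6.46, 7.35 and 6.54 with anti-GBM GN and 5.66, 7.10 and 6.77 in controls. The groups overlapped in every comparison and none was called, with treatment differences of 0.26 in 129S2SvPAs and 0.27 in C57BL6J (SE 0.34 each).

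Mgp encodes matrix Gla protein, a secreted vitamin K-dependent protein that keeps vessel walls from calcifying and binds bone morphogenetic proteins. Its signal was 8.13, 8.86 and 9.29 in 129S2SvPAs anti-GBM GN, against 5.62, 6.14 and 6.48 in 129S2SvPAs controls. In C57BL6J it was 8.02, 8.26 and 8.02 with anti-GBM GN and 7.40, 7.55 and 7.38 in controls. The 129S2SvPAs controls lay below all other arrays, and challenged mice lay above controls in both strains without overlap. Mgp rose by 2.68 in 129S2SvPAs (SE 0.28, 6.41-fold, adjusted p = 0.000114), and was called in 21 of 21 alternative settings. In C57BL6J the difference was 0.66 (SE 0.28, 1.58-fold, adjusted p = 0.198), and it was called with array weights (adjusted p = 0.0377) and in a fit of the C57BL6J groups alone (adjusted p = 0.0205).

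In challenged mice the 129S2SvPAs signal of Mgp was 0.66 above that of C57BL6J (SE 0.28, adjusted p = 0.193), with overlap. That difference was called in 2 of 21 alternative settings. These were the fit without replicate 1 of 129S2SvPAs anti-GBM GN (0.97, adjusted p = 0.0269) and the one with array weights (0.80, adjusted p = 0.0136). Among controls Mgp was lower in 129S2SvPAs than in C57BL6J, with a difference of -1.36 (SE 0.28, adjusted p = 0.0121). Of the 12 arrays left out in turn, that call was lost without replicate 2 of the C57BL6J controls (-1.31, adjusted p = 0.0549). The responses of the strains differed by 2.02 (SE 0.39, adjusted p = 0.0558), which missed the threshold. Without replicate 1 of 129S2SvPAs anti-GBM GN, the array that stands apart, the difference of responses was 2.34 and was called (adjusted p = 0.00993). Over all 20 alternatives run for it the value lay between 1.76 and 2.34, with 3 calls. One probe set measured Mgp, so no other could be compared.

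Bmp2, which encodes a bone morphogenetic protein that matrix Gla protein binds, rose in both strains. It read 7.93, 7.80 and 7.21 in 129S2SvPAs anti-GBM GN and 5.02, 5.11 and 4.29 in 129S2SvPAs controls, against 7.75, 8.14 and 7.41 in C57BL6J anti-GBM GN and 4.58, 5.05 and 4.86 in C57BL6J controls. The challenged mice and controls did not overlap in either strain, and the differences were 2.84 in 129S2SvPAs (SE 0.27, adjusted p = 7.3e-05) and 2.94 in C57BL6J (SE 0.27, adjusted p = 0.000128). Bmp4, another bone morphogenetic protein that matrix Gla protein is known to bind, was named after its values were seen. It averaged 7.58 ± 0.23 in 129S2SvPAs anti-GBM GN and 7.59 ± 0.63 in 129S2SvPAs controls, against 7.35 ± 0.25 in C57BL6J anti-GBM GN and 6.94 ± 0.35 in C57BL6J controls (SD, n = 3), and was not called.

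Ptn encodes pleiotrophin, a secreted heparin-binding growth factor. Its signal was 6.66, 7.10 and 7.06 in 129S2SvPAs anti-GBM GN, against 7.89, 7.82 and 8.36 in 129S2SvPAs controls. C57BL6J mice had 8.65, 9.0 and 7.81 with anti-GBM GN and 8.04, 8.80 and 8.67 in controls. The challenged 129S2SvPAs mice lay below all 9 other arrays, while the C57BL6J groups overlapped. Ptn fell by 1.08 in 129S2SvPAs (SE 0.30, 0.472-fold, adjusted p = 0.0282), a call made in 14 of 21 alternative settings. It was lost without any 1 of the 129S2SvPAs arrays other than control replicate 2, with differences of -1.16 to -0.91 and adjusted p from 0.0528 to 0.0917. It was also lost with no filter (adjusted p = 0.0646) and with the mean of its probe sets, which includes the one at the floor (-0.62, adjusted p = 0.112). The difference in C57BL6J was -0.02, with a 95% interval of -0.69 to 0.65, and the difference of responses was -1.07 (SE 0.43, adjusted p = 0.393).

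Between challenged mice Ptn was lower in 129S2SvPAs by -1.55 (SE 0.30, 0.342-fold, adjusted p = 0.00966), in 21 of 21 alternative settings. A second probe set gave -2.09 for the same comparison (SE 0.47, adjusted p = 0.0229) and -0.80 for the 129S2SvPAs response (SE 0.47, adjusted p = 0.29). The remaining probe set was at the floor. In controls the strain difference was -0.48 by the first probe set (SE 0.30, adjusted p = 0.406), with overlap. The second one gave -1.14 there (SE 0.47, adjusted p = 0.195), without overlap, and neither was called. Mdk encodes midkine, the other member of the pleiotrophin family, and ran the other way between the strains. It read 9.88, 10.06 and 10.04 in 129S2SvPAs anti-GBM GN, against 8.00, 8.02 and 8.59 in C57BL6J anti-GBM GN, a difference of 1.79 (SE 0.24, adjusted p = 0.00108). In controls it read 9.28, 9.42 and 9.79 in 129S2SvPAs and 8.27, 7.63 and 8.56 in C57BL6J, a difference of 1.34 (SE 0.24, adjusted p = 0.00617).

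Sfrp2 encodes a secreted Frizzled-related protein that binds WNT ligands. Its signal was 9.12, 9.15 and 8.56 in 129S2SvPAs anti-GBM GN, against 7.98, 7.87 and 7.26 in 129S2SvPAs controls. In C57BL6J it was 8.24, 9.76 and 7.75 with anti-GBM GN and 7.02, 8.38 and 7.72 in controls. The 129S2SvPAs groups did not overlap and the C57BL6J groups did. The difference was 1.24 in 129S2SvPAs (SE 0.48, adjusted p = 0.0982) and 0.88 in C57BL6J (SE 0.48, adjusted p = 0.342), neither of them called. The 129S2SvPAs difference was called without replicate 2 of C57BL6J anti-GBM GN (1.24, adjusted p = 0.032) and in a fit of the 129S2SvPAs groups alone (adjusted p = 0.0325). Its paralog Sfrp1 was higher in 129S2SvPAs, by 1.91 in challenged mice (SE 0.20, adjusted p = 0.00022) and 2.00 in controls (SE 0.20, adjusted p = 0.000145). Wnt4, which encodes a WNT ligand of the kidney, rose by 1.37 in 129S2SvPAs (SE 0.32, adjusted p = 0.0118) and by 2.20 in C57BL6J (SE 0.32, adjusted p = 0.0021). The C57BL6J controls of Wnt4 read 2.46, 2.46 and 2.90, all below the filter level of 3.03, so the C57BL6J difference may be understated. Among the 129S2SvPAs controls 1 read 2.92.

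Fhl2 encodes a LIM-only protein that acts as a coactivator in smooth muscle and mesenchymal cells, and both its promoter windows carried a CArG box. Its signal was 6.40, 7.23 and 6.79 in 129S2SvPAs anti-GBM GN, against 6.44, 6.31 and 5.20 in 129S2SvPAs controls. C57BL6J mice had 7.77, 8.09 and 7.0 with anti-GBM GN and 6.87, 7.53 and 7.10 in controls. The 129S2SvPAs controls lay below the C57BL6J controls without overlap. Without a replicate block or array weights no comparison of Fhl2 was called. The strain difference was -0.81 in challenged mice (SE 0.37, adjusted p = 0.239) and -1.18 in controls (SE 0.37, adjusted p = 0.081). The treatment difference was 0.82 in 129S2SvPAs (SE 0.37, adjusted p = 0.15) and 0.45 in C57BL6J (SE 0.37, adjusted p = 0.557). With the replicate number as a block the difference between controls was called (-1.18, adjusted p = 0.0338), and same-numbered arrays of the control groups deviated together (r = 0.239 to 0.284 over 3 pairs). With array weights the 129S2SvPAs response of Fhl2 (0.90, adjusted p = 0.0393) and its difference between controls (-1.04, adjusted p = 0.0496) were called. Its paralog Fhl1 fell in 129S2SvPAs by 0.67 (SE 0.13, adjusted p = 0.00445).

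**Figure D4:**
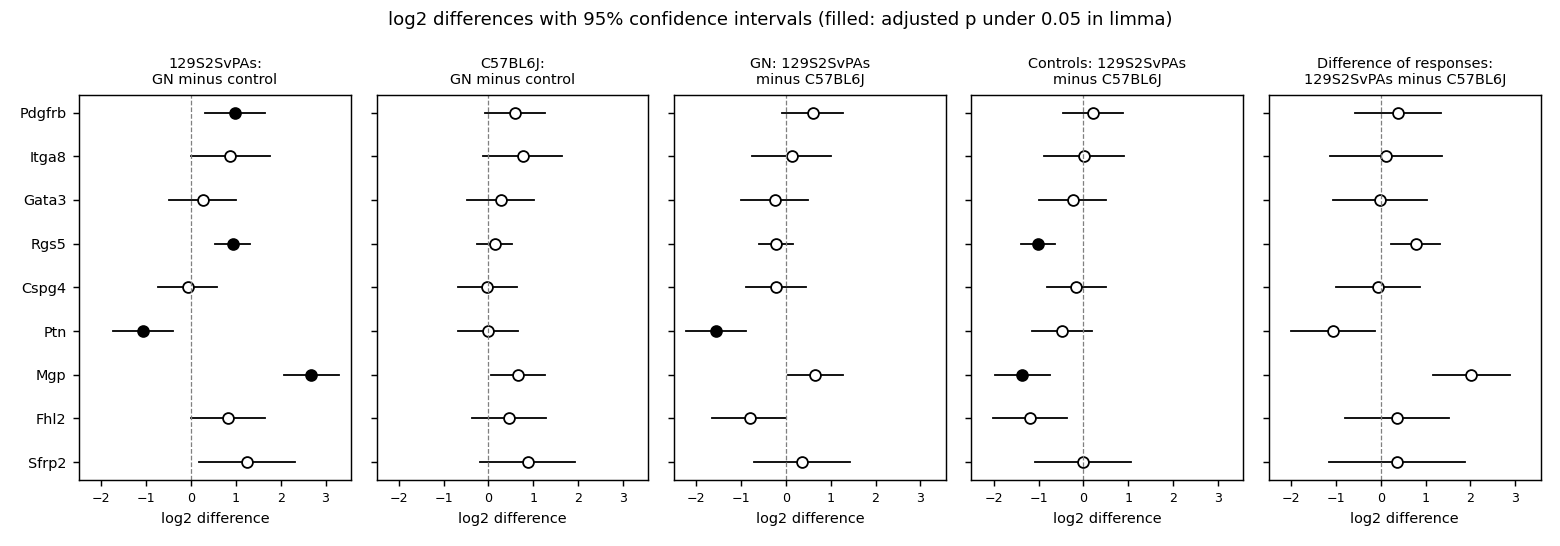
For the 9 measured markers, the log2 difference with its 95% interval is drawn in each of the 5 comparisons, filled where the limma adjusted p is under 0.05. The filled points are Pdgfrb, Rgs5, Ptn and Mgp in the 129S2SvPAs response, Ptn between challenged strains, and Rgs5 and Mgp between control strains.

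Serpine2 encodes protease nexin 1, an inhibitor of thrombin and urokinase, and was the marker not measured. F2r encodes the main thrombin receptor. It read 12.32, 11.95 and 11.67 in 129S2SvPAs anti-GBM GN and 9.11, 9.68 and 8.89 in 129S2SvPAs controls, a difference of 2.75 (SE 0.23, adjusted p = 3.76e-05). In C57BL6J it read 12.37, 12.50 and 12.13 with anti-GBM GN and 10.42, 10.99 and 10.69 in controls, a difference of 1.63 (SE 0.23, adjusted p = 0.00195). F2r was lower in 129S2SvPAs controls than in C57BL6J controls (-1.47, SE 0.23, adjusted p = 0.00301), and its responses differed by 1.12, which was not called (SE 0.33, adjusted p = 0.211). Plau, which encodes urokinase, was named after its values were seen. It was lower with anti-GBM GN in 129S2SvPAs (-1.40, SE 0.30, adjusted p = 0.00785) and in C57BL6J (-1.23, SE 0.30, adjusted p = 0.034).

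Further markers and relatives were counted as lists. Of 28 other mesangial cell and pericyte markers 16 were tested. In 129S2SvPAs 5 of these rose and 2 fell, with a median difference of 0.11, and in C57BL6J 3 rose and 0 fell, with a median of 0.16. Of all genes 10.6% rose and 9.76% fell in 129S2SvPAs, and 4.78% rose and 2.31% fell in C57BL6J. Cald1, Des and Mcam, which encode the actin-binding protein caldesmon, the filament protein desmin and an adhesion molecule of vessel cells, rose in both strains. Cald1 rose by 2.31 in 129S2SvPAs (SE 0.21, adjusted p = 5.17e-05) and 1.99 in C57BL6J (SE 0.21, adjusted p = 0.000264). Foxd1, a transcription factor of the stromal lineage from which mesangial cells and pericytes descend, rose by 1.47 in 129S2SvPAs (SE 0.30, adjusted p = 0.0062) and was lower in 129S2SvPAs controls than in C57BL6J controls (-1.68, SE 0.30, adjusted p = 0.00621). Gucy1a1, a subunit of the nitric oxide receptor, was lower in 129S2SvPAs with anti-GBM GN than in C57BL6J with it (-0.89, SE 0.24, adjusted p = 0.0472). The 2 that fell in 129S2SvPAs were Gucy1a1 (-0.97, SE 0.24, adjusted p = 0.0163) and Anpep (-0.64, SE 0.18, adjusted p = 0.0267). Anpep was named after its values were seen, as was this response of Gucy1a1.

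Of 28 ligands, receptors and partners 24 were tested, of which 8 rose and 2 fell in 129S2SvPAs and 7 rose and 3 fell in C57BL6J, with medians of 0.53 and 0.28. Between challenged mice 2 were higher in 129S2SvPAs and 1 was lower, and between controls 1 was higher and 4 were lower. Among all genes, 3.49% were higher and 4.89% lower between challenged mice, and 3.32% higher and 5.11% lower between controls. Of 26 paralogs of the markers 12 were tested, of which 3 rose and 2 fell in 129S2SvPAs and 2 rose and 0 fell in C57BL6J. Beside the responses of both lists, 10.6% of all genes rose and 9.76% fell in 129S2SvPAs, and 4.78% rose and 2.31% fell in C57BL6J. Rgs3, a relative of Rgs5, rose by 0.99 in 129S2SvPAs (SE 0.12, adjusted p = 0.000251) and by 0.56 in C57BL6J (SE 0.12, adjusted p = 0.0179). None of the members of those 3 lists was called in the difference of responses by limma, and 2, 4 and 2 of them had an unadjusted p under 0.05, out of 16, 24 and 12, beside 10.9% of all genes.

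The mean signal of the 9 markers was 7.89, 7.93 and 7.75 in 129S2SvPAs anti-GBM GN, against 7.15, 7.21 and 7.01 in 129S2SvPAs controls. In C57BL6J it was 7.90, 8.47 and 7.65 with anti-GBM GN and 7.15, 7.94 and 7.69 in controls. The C57BL6J arrays moved together across the list, since replicate 1 of the controls was the lowest of its group for 8 of 9 markers and for 30.8% of all genes. Replicate 2 was the highest of its group for 8 of 9 markers in the C57BL6J controls, where it was highest for 30.0% of all genes. The same held for replicate 2 of C57BL6J anti-GBM GN, highest for 8 of 9 markers and for 29.8% of all genes.

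Markers of other cell types moved in the same comparisons. Beside their responses, 10.6% of all genes rose and 9.76% fell in 129S2SvPAs, and 4.78% rose and 2.31% fell in C57BL6J. The 8 vascular smooth muscle markers had a mean signal of 4.89 to 5.18 in 129S2SvPAs anti-GBM GN and 3.86 to 3.96 in 129S2SvPAs controls, against 5.20 to 5.33 in C57BL6J anti-GBM GN and 4.19 to 4.38 in C57BL6J controls. Of the 5 tested, 2 rose in each strain, Tagln and Acta2, named after their values were seen. Tagln rose by 5.70 in 129S2SvPAs and 5.29 in C57BL6J, and Acta2 by 2.33 and 1.64. Myh11, Smtn and Lmod1 were called in neither response, and Cnn1, Myocd and Actg2 stayed at the floor. The 10 glomerular endothelium markers averaged 8.79 to 9.04 in 129S2SvPAs anti-GBM GN and 7.59 to 9.08 in 129S2SvPAs controls, against 9.21 to 9.82 in C57BL6J anti-GBM GN and 9.10 to 9.84 in C57BL6J controls, and 4 rose and 1 fell in 129S2SvPAs. The 7 podocyte markers measured averaged 6.86 to 7.26 in 129S2SvPAs anti-GBM GN and 6.94 to 7.80 in 129S2SvPAs controls, against 8.07 to 9.10 in C57BL6J anti-GBM GN and 8.64 to 9.33 in C57BL6J controls. All 7 were lower in 129S2SvPAs controls than in C57BL6J controls. With anti-GBM GN 2 of the 7 rose and 2 fell in 129S2SvPAs, and 0 were called in C57BL6J. Of 5 interstitial fibroblast markers tested 2 rose in 129S2SvPAs, and Lum, Col1a1 and Col14a1 were at the floor. Of 10 proximal tubule markers 7 fell in 129S2SvPAs and 2 in C57BL6J. The 7 parietal epithelium markers averaged 7.59 to 7.64 in 129S2SvPAs anti-GBM GN and 6.94 to 7.28 in 129S2SvPAs controls, against 7.20 to 7.41 in C57BL6J anti-GBM GN and 6.86 to 7.02 in C57BL6J controls, with 1 of 7 called higher in 129S2SvPAs and 0 in C57BL6J. The 10 leukocyte and macrophage markers averaged 4.54 to 4.62 in 129S2SvPAs anti-GBM GN and 3.98 to 4.69 in 129S2SvPAs controls, against 4.73 to 5.49 in C57BL6J anti-GBM GN and 4.43 to 4.92 in C57BL6J controls. Of the 7 tested 1 rose in each strain, and Itgam, C1qa and Fcgr1 were at the floor. Between controls, 3 of 10 endothelium, 2 of 5 smooth muscle and 1 of 5 fibroblast markers were called lower in 129S2SvPAs, with 0 higher. Of the proximal tubule markers 3 of 10 were called higher and 0 lower, and of parietal epithelium 2 of 7 higher and 1 lower. Of the 7 leukocyte and macrophage markers tested 0 were called, beside 5.11% of all genes lower and 3.32% higher. The median was -1.2 for endothelium and -0.02 for proximal tubule. The part of these cell types in the differences of the mesangial cell and pericyte markers was not tested.

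**Figure D5:**
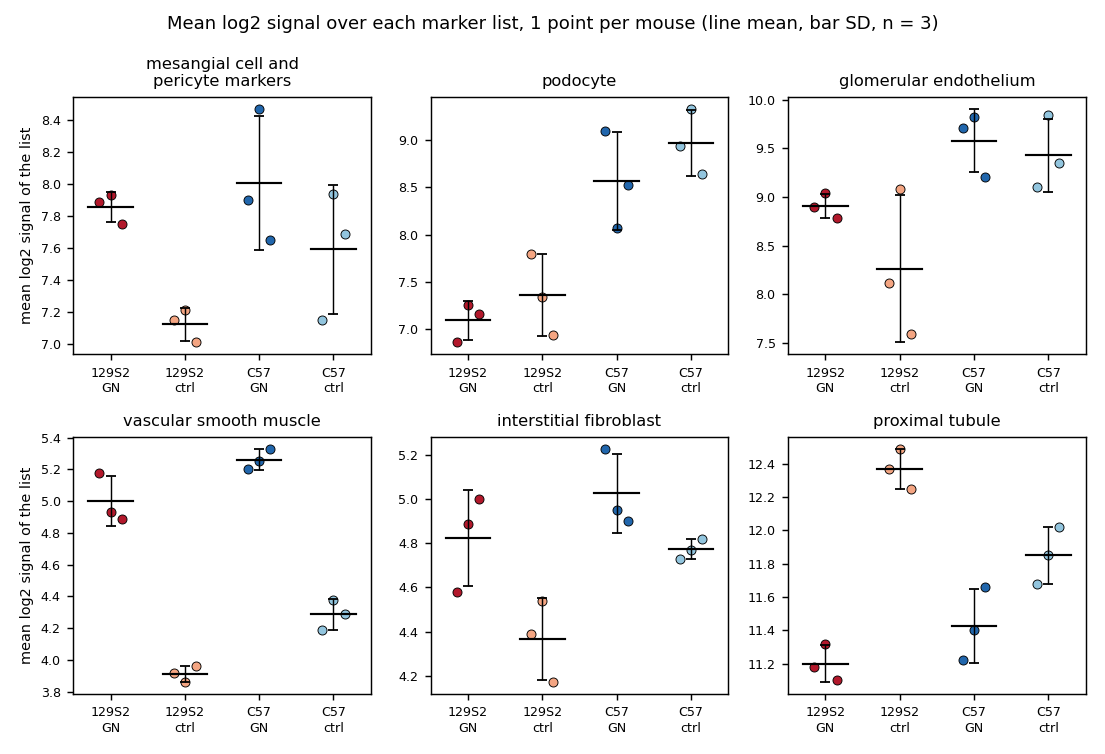
The mean log2 signal over 6 marker lists (vertical axes) is plotted per mouse in the 4 groups, with the group mean as a line and the SD as a bar (n = 3). The mean of the mesangial cell and pericyte markers is higher with anti-GBM GN in 129S2SvPAs without overlap. That of the vascular smooth muscle markers, which holds the large rises of Tagln and Acta2, is higher with it in both strains. The podocyte mean is lower in 129S2SvPAs.

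Each marker was set beside the tested gene whose signal was most like its own over the 12 arrays, as a description among 11912 genes outside the list. Fhl2 was most like Rbms1 (Pearson r = 0.975, Spearman rho = 0.921) and Mgp most like Slc39a6 (r = 0.964, rho = 0.97). Sfrp2 was most like Nr2f1 (r = 0.941, rho = 0.877), Cspg4 most like Chd8 (r = 0.933, rho = 0.972) and Rgs5 most like Niban2 (r = 0.927, rho = 0.727). Pdgfrb was most like Eif4ebp2 (r = 0.926), Itga8 like Nt5e (r = 0.925), Ptn like Thap1 (r = 0.917) and Gata3 like Cdk12 (r = 0.892). The 12 arrays share the differences of strain and treatment, which enter each of these values.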

How the data were processed

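RNA of 12 glomerular isolates was hybridised to Affymetrix arrays, and the authors deposited log2 probe set signals with 2 decimals. The submitters' processing notes name MAS5 and GCRMA, give no version and do not say which of them the values come from. That they are log2 follows from their range. Scan dates are not given in the sources used here, so no batch could be tested. Of 45037 probe sets 34957 had 1 gene symbol in the platform annotation, 920 had several and 9160 had none. A gene was tested when its brightest probe set exceeded the median of the table, 3.03, on at least 3 arrays.

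One mean per group was fitted over 12 arrays in R 4.3.3 with limma 3.58.1 (10.71 total degrees of freedom), followed by 5 contrasts, two-sided. Same-numbered arrays deviated together (each of 3 correlations over 0.1) for C57BL6J anti-GBM GN with C57BL6J controls and for the controls of the strains, and not for the other groups compared; this pairing comes from the data, since the labels give the numbers no meaning. The p-values measure the spread between 3 mice a group. The code was tested on simulated data. The marker list, the related lists and the cell type lists were chosen with earlier results of these data known. Named genes were the markers, up to 4 called genes with the lowest p per related list and contrast, the gene most like each marker, and others said to be named after their values were seen. Alternatives were arrays shifted to one median, quantile normalization, a stricter filter (75th percentile) and none, the mean of a gene's probe sets, a trended and robust prior, array weights, only the groups compared, a replicate block, and leaving out each array. Other probe sets of a marker were added after seeing the data. Figures used Python 3.11.15, matplotlib 3.10.9 and pandas 2.3.3.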

Additional observations from a re-analysis of the deposited data

Results flagged for a closer look

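Cd14, a lipopolysaccharide co-receptor in the leukocyte and macrophage list used beside the markers, responded differently in the strains by the test of the difference itself. It averaged 8.86 ± 0.08 in 129S2SvPAs anti-GBM GN and 4.70 ± 0.36 in 129S2SvPAs controls, against 6.65 ± 0.36 in C57BL6J anti-GBM GN and 4.83 ± 0.37 in C57BL6J controls (SD, n = 3). The responses, 4.16 in 129S2SvPAs and 1.82 in C57BL6J, differed by 2.34 (SE 0.34, limma adjusted p = 0.0193). None of the 9 measured mesangial cell and pericyte markers met the same test.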

How the results depend on the processing

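Of 45 marker differences 7 were called. For Rgs5 the strain difference in controls became 0.00 with the mean of its probe sets (adjusted p = 1), and with probe set 1420941_at it was 2.45 in challenged mice and 1.65 in controls. Of the differences not called, some changed sign in some setting (18 of 45 results).

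Array weights gave 3830 called genes, against 2424, in the 129S2SvPAs response and 2021, against 845, in that of C57BL6J. They gave 2256, against 999, between challenged strains, 1601, against 1005, between controls and 286, against 67, for the difference of responses. With these weights 2 markers were called in the C57BL6J response, 2 between challenged strains and 1 in the difference of responses. Fitting only the groups compared gave 1415 genes in the 129S2SvPAs response, 578 between challenged strains and 1 marker in the C57BL6J response. No filter left 2 markers in the 129S2SvPAs response, the mean of probe sets left 1 between controls, and the stricter filter left 18 genes for the difference of responses. Leaving out 1 array gave 407 to 1141 genes in the C57BL6J response, 612 to 1117 between challenged strains, 503 to 1288 between controls and 15 to 136 for the difference of responses. It gave 2 to 4 markers in the 129S2SvPAs response, 1 to 2 between challenged strains, 1 to 2 between controls and 0 to 1 for the difference of responses. A group left with 2 arrays was assumed to vary like the others. The cause of these changes was not tested.

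Shifting each array to one median moved the median difference between controls of all genes to 0.117, against -0.003, and the share of calls that were higher in 129S2SvPAs to 59.2%, against 39.4%. For the difference of responses that share became 36.9%, against 47.8%. On that scale Rgs5 was -0.89 and Mgp -1.24 between controls, both still called.

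With the replicate block 33 genes and 1 marker, Mgp, were called in the difference of responses (2.02, adjusted p = 0.0485). Fhl2 between controls (adjusted p = 0.0338) and Sfrp2 in the 129S2SvPAs response (adjusted p = 0.043) were also called under the block. In the C57BL6J response and between controls, where the 3 same-numbered pairs were each correlated over 0.1 (0.208 to 0.33 and 0.239 to 0.284), the block changed no marker call other than that of Fhl2. In the 129S2SvPAs response and between challenged mice 1 of 3 pairs passed 0.1 (-0.157 to 0.183 and -0.38 to 0.121), so the numbers were not shown to pair those mice. Over all groups 11 of 18 pairs passed, and 7 of 12 arrays correlated best with their own number.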
